A study of Mus musculus with 2 samples.

Results

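Cd4, Cd8a, Cd8b1 and Zbtb7b, the genes of coreceptor choice in T cells, were examined in the open chromatin of mouse regulatory T cells mapped by ATAC-seq, in which the Tn5 transposase cuts accessible DNA. These are 4 of 21938 protein-coding genes, and their peaks were taken as those with a summit in the gene (GENCODE M21) or 50 kb on either side. In the list that passed the threshold on the irreproducible discovery rate (IDR, which scores whether a peak ranks alike in repeated calls), 27 of 34610 peaks met this rule. The cells were primary regulatory T cells of a male mouse aged 4 months of the cross Foxp3CreERT2 x Rosa26YFP, in which Foxp3 drives a tamoxifen-inducible Cre and Rosa26 holds a YFP reporter. As origin the labels name a bone marrow haematopoietic cell. There is 1 group, made of 2 libraries that the labels number as technical replicates of 1 biological replicate. The authors called peaks on one alignment shared by both libraries, so the values below are those of pooled reads, without an error between animals. The exception is the −log10 p in the 2 inputs of the IDR step, whose identity is not given. No conditions could be compared. How the cells were sorted and treated is not given in the sources used here. Peak lists hold no read counts, so the depth behind each value is unknown.

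CD4 and CD8 are the coreceptors that hold the T cell receptor against MHC class II and class I molecules. Thymocytes first carry both and then keep one: helper and regulatory T cells keep CD4, and cytotoxic T cells keep CD8, a pair of chains encoded by Cd8a and Cd8b1. Zbtb7b encodes ThPOK, the zinc finger factor that directs cells to the CD4 lineage, and the Runx factors, Runx3 above all, oppose it by binding silencers in Cd4 and Zbtb7b. The Cd4 silencer lies in intron 1, where a maturity enhancer is also known, and the Cd8 genes are driven by several enhancers, many of them between Cd8b1 and Cd8a.

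The coreceptor loci of these cells were unlike each other. Cd4 had 15 thresholded peaks in its window and Zbtb7b 11, whereas Cd8b1 had 1 and Cd8a 0. Over all protein-coding genes the median was 3 peaks (quartiles 1 and 6). A count of 15 or more was reached by 1.61% of these genes, a count of 11 or more by 6.58% and a count of 1 or more by 76.6%, and a count of 0 was found at 23.4%. A count of 0 is therefore common. Of the 27 peaks, 18 had a summit within 1 kb of a transcript start of any gene, against 39.6% of all thresholded peaks. The counts of Cd4 and Zbtb7b thus include peaks at the starts of neighbouring genes. At Cd4, 7 of the 15 peaks lay within 1 kb of a start of another gene, 1 at the start of Cd4, 2 inside Cd4 and 5 elsewhere. At Zbtb7b, 8 of the 11 lay at a start of another gene, 1 at its own and 2 inside the gene. Within 1 kb of the 5′ end, 3 of the 4 genes had a thresholded peak, with none at Cd8a, against 48.6% of protein-coding genes.

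**Figure D1:**
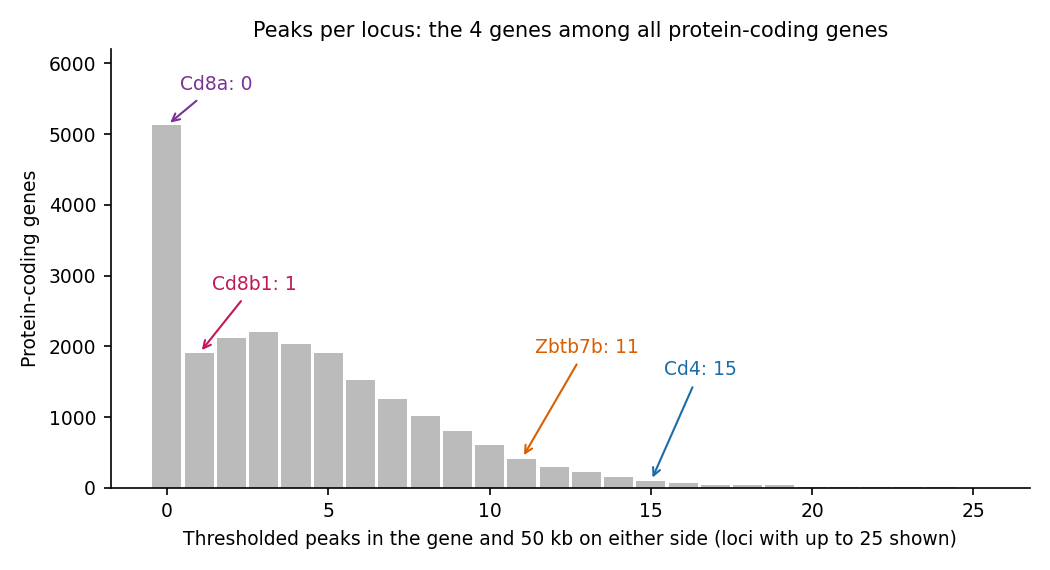
Number of protein-coding genes (y axis) by thresholded peaks counted in the gene plus 50 kb each way (x axis, up to 25 peaks shown), with the 4 genes marked by arrows. Cd4 (15) and Zbtb7b (11) stand in the upper tail, and Cd8b1 (1) and Cd8a (0) at the low end.

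Cd4 (ENSMUSG00000023274.14, chromosome 6, 124864692 to 124888221 on the minus strand, GRCm38) had its strongest gene-body peak in intron 1 and only a weak peak at its start. The peak over the start (124888112 to 124888336) was 225 bp wide with 1 summit, 5 bp from the transcript start. Its signal (the enrichment that the authors give each peak) was 4.56 and its −log10 p 44.9. It stood at percentile 3.96 of all thresholded peaks by signal and 15.3 by −log10 p, so it was among the weaker peaks of the list. The main intron 1 peak (124884938 to 124885760) had its summit at +2.87 kb, a signal of 19.1 and a −log10 p of 489.5, at percentiles 78.4 and 90.6. A second peak of intron 1 (124885874 to 124886162) had its summit at +2.22 kb, a signal of 3.88 and a −log10 p of 32.7, at percentiles 2.03 and 6.25. Its −log10 IDR was 1.37, close to the lowest value of the thresholded list, 1.301. Intron 1 spans 8.39 kb, and no list held a peak in the 20.3 kb from the main intron 1 peak to the 3′ side of the gene (124864613 to 124884937).

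Sequences of the intron 1 peaks of Cd4 are shown because the known silencer binds Runx factors and the sources used here give no boundaries for it. All windows were read from GRCm38.p6 on the strand of the gene, and capitals mark matches on either strand. The RUNX letters searched were TGTGGT and TGCGGT, and matches of different families can overlap, as TGATAA can with CTTTGAT. In the weak intron 1 peak (chr6:124885874-124886162, minus strand) capitals mark RUNX.
Cd4 intron 1, +2.22 kb: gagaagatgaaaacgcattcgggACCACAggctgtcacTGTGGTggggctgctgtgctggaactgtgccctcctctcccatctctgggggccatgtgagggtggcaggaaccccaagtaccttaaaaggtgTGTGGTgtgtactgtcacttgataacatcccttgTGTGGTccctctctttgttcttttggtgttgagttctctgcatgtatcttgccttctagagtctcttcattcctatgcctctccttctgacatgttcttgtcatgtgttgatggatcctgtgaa
In the main intron 1 peak (chr6:124885200-124885499, minus strand, around the summit) capitals mark the TCF/LEF letters CTTTGAT or CTTTGTT.
Cd4 intron 1, +2.87 kb: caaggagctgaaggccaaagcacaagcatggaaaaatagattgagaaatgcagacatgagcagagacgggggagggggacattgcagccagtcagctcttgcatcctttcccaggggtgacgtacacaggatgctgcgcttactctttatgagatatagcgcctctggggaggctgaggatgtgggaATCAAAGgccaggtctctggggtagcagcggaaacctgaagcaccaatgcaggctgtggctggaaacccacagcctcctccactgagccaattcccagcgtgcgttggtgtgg

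The weak intron 1 peak held 4 RUNX matches and the main intron 1 peak 0. Among all thresholded peaks, 31.4% had at least 1 RUNX match in the 300 bp around the summit, 5.80% at least 2 and 0.150% at least 4. All of intron 1 held 9 RUNX matches, of which the 4 in peaks were those of the weak peak. That gives 3.60 matches per kb in the 1112 bp of intron 1 under peaks, and 1.07 per kb over the whole intron. The main intron 1 peak held 1 TCF/LEF match (TCF1 and LEF1 are the HMG-box factors of T cells), as did the weak peak, against 11.1% of all peaks with at least 1. A match is a string of letters and does not show that a factor was bound.

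Upstream of Cd4, peaks away from starts lay among others at −15.5 kb (signal 8.53, −log10 p 135.2) and −19.7 kb (7.84 and 99.4), the first at the 3′ end of Lag3 and the second inside that gene, which encodes an inhibitory receptor for MHC class II related to CD4. The −19.7 kb window had the lowest GC content of the 27 peaks, 37.7%, with 2 GATA matches and 1 AP-1 match, against a median of 51.0% GC over all peaks. The window from 22 to 26 kb, where a distal enhancer has been described, held no thresholded peak. The longer pseudoreplicated list had 1 there, at −23.5 kb (124911483 to 124912196), with a signal of 3.72 and a −log10 p of 18.4, and its summit lay 36 bp from the start of Lag3. Lag3 thus had no thresholded peak at its start.

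Downstream of Cd4 the strongest peak by signal in the whole window lay at +40.8 kb, inside P3h3 and away from any start (124847286 to 124847739). Its signal was 20.9, percentile 84.6, but its −log10 p of 101.7 stood only at percentile 45.6. The main intron 1 peak was the reverse, with a lower signal and a higher −log10 p. A peak at +28.3 kb in Gpr162 was weak (5.38, −log10 p 34.2). The 7 thresholded peaks at starts of other genes were those of Usp5 and Cdca3, P3h3, Gpr162, Ptms, the antisense transcript A230083G16Rik and Mlf2, with signals from 4.63 (Ptms) to 14.9 (P3h3). Usp5 encodes a deubiquitinase and Ptms encodes parathymosin.

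**Figure D2:**
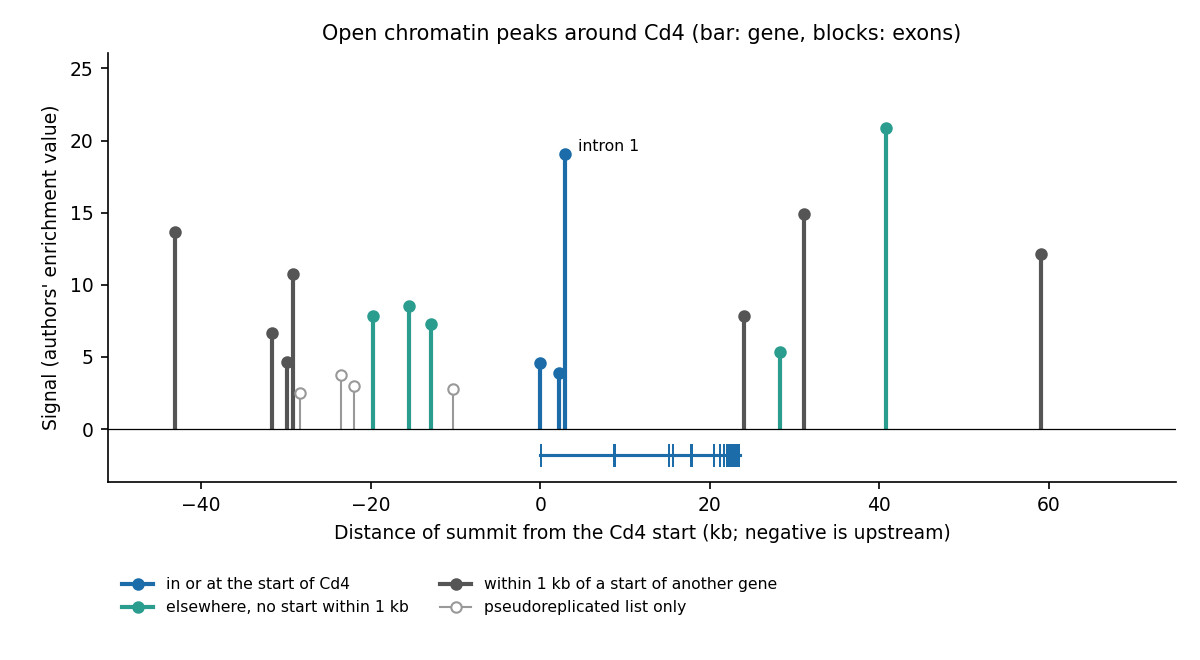
Signal of each peak (y axis, the authors' enrichment value) by the distance of its summit from the Cd4 start in kb (x axis, negative is upstream), with the gene drawn under the axis and open circles for peaks of the pseudoreplicated list only. The intron 1 peak (19.1) stands over the peak at the gene start (4.56) and the weak intron 1 peak (3.88).

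The Cd8 locus showed 1 open site, at the start of Cd8b1. Cd8b1 (ENSMUSG00000053044.8, chromosome 6, 71322788 to 71337494, plus strand) encodes the CD8 beta chain, and Cd8a (ENSMUSG00000053977.13, 71373427 to 71379173, plus strand) the alpha chain. The Cd8b1 peak (71322224 to 71323362) was 1139 bp wide with 4 summits, of which the strongest lay 6 bp inside exon 1. Its signal was 10.7 and its −log10 p 54.3, percentiles 35.4 and 22.1. The interval also covers the start of Smyd1, which encodes a methyltransferase of striated muscle and runs the other way, so the peak is not specific to Cd8b1. By −log10 p it stood above the peak at the Cd4 start, 44.9, and by signal too, 10.7 against 4.56. These values describe one pool and give no test of that difference.

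Between the 3′ end of Cd8b1 and the start of Cd8a, 35.9 kb (71337495 to 71373426), no list held a peak: 0 thresholded, 0 pseudoreplicated and 0 of the ranked list, which goes below the IDR threshold. The 4 noncoding genes and pseudogenes annotated in that stretch, Gm44110, Gm44111, Gm44174 and Gm44175, had no peak within 1 kb of their starts. Neither Cd8a itself nor the 10 kb downstream of it held a peak in any list. Of 1701 stretches between neighbouring protein-coding genes with a length within 20% of this one, 57.0% also held 0 thresholded peaks and 45.9% held 0 pseudoreplicated peaks. A stretch of this length without peaks was thus common in both lists, although in the pseudoreplicated list most such stretches held a peak. The interval without thresholded peaks around the Cd8a start was 116.6 kb long, from the Cd8b1 peak to the start of Rmnd5a. Of 34589 gaps between adjacent peaks, 9.10% were at least as long, and the median gap was 14.7 kb. This share counts each gap once, whereas a gap picked because it holds a given position is more often a long one. The share of positions in gaps this long is therefore higher than 9.10%, and it was not computed. An empty list says that no peak was called at this unknown depth, and not that the DNA was closed.

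Below the threshold, the pseudoreplicated list added 3 peaks to the Cd8 windows. At −23.8 kb from the Cd8b1 start, inside the noncoding gene Gm1070, a peak had a signal of 8.97 and a −log10 p of 29.5, and its −log10 IDR was 0.778. At +25.96 kb from the Cd8a start, 98 bp from a start of Rmnd5a, a peak had a signal of 8.76 and a −log10 p of 28.4 (−log10 IDR 0.815). At +49.9 kb, 1 had 4.17 and 8.37. None of them lay between the Cd8 genes.

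**Figure D3:**
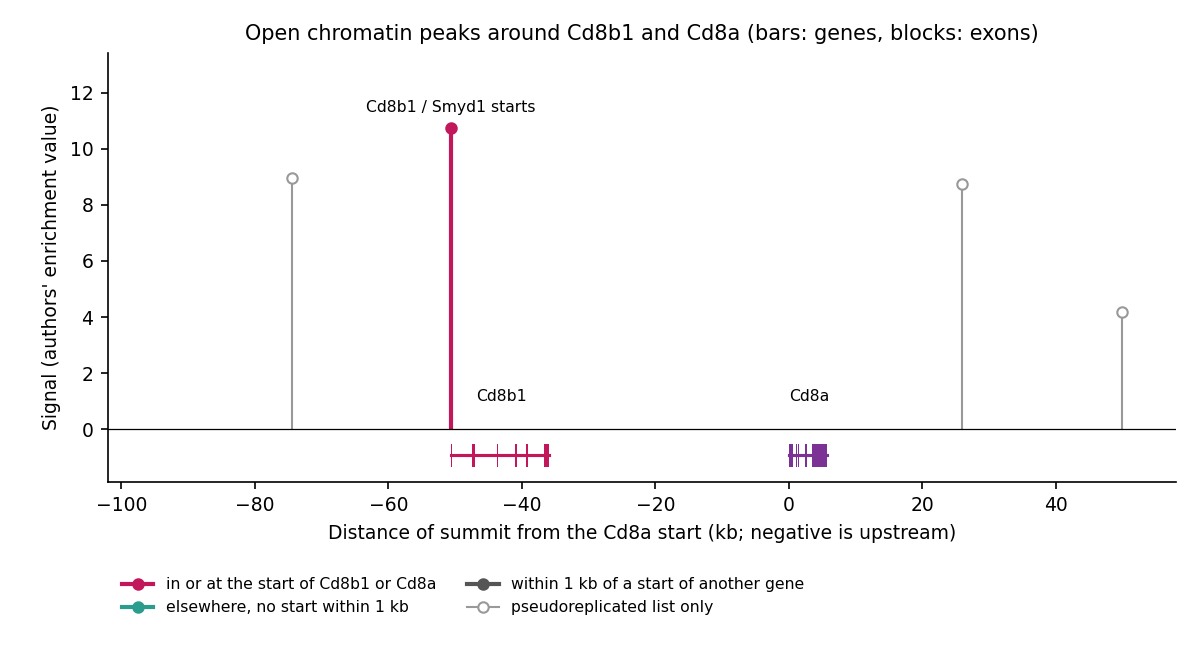
Signal of each peak (y axis, the authors' enrichment value) by the distance of its summit from the Cd8a start in kb (x axis, negative is upstream), with both genes drawn under the axis and open circles for peaks of the pseudoreplicated list only. The 1 thresholded peak stands at the Cd8b1 start (10.7), and the stretch from there through Cd8a is empty.

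The promoters of the Cd8 genes are shown because they differ in composition as well as in peaks. In the 300 bp before Cd8b1 (chr6:71322488-71322787, plus strand) capitals mark KLF/SP (GGGCGG or its complement, the GC box of general promoter factors) and TCF/LEF.
Cd8b1 promoter: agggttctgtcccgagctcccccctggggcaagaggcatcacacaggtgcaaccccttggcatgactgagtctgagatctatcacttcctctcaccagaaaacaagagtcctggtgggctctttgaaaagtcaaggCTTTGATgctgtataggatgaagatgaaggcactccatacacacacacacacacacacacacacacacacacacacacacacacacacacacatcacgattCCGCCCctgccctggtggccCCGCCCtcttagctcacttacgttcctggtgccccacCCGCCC
The 300 bp before Cd8a (chr6:71373127-71373426, plus strand) held no match to any of the 9 motif families and has no capitals.
Cd8a promoter: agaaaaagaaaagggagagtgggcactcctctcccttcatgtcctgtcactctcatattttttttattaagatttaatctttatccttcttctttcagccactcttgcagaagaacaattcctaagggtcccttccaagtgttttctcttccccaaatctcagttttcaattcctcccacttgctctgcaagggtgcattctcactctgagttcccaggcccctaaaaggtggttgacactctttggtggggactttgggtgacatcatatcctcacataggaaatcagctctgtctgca
The Cd8b1 window held 6 CpG dinucleotides, 3 KLF/SP matches and a run of CA repeats, with a GC content of 55.3%. That window also held 1 TCF/LEF, 1 ETS (GGAAGT) and 1 E-box (CACCTG) match, with ETS and E-box left in lower case. The Cd8a window held 0 CpG and 44.0% GC. The ratio of observed to expected CpG was 0.285 before Cd8b1 and 0 before Cd8a, against a median of 0.708 at genes with a thresholded peak at the 5′ end and 0.230 at genes without. Of the 9789 protein-coding genes with a ratio under 0.4, 16.9% had a thresholded peak at the 5′ end, and Cd8b1 was one of them.

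Zbtb7b (ENSMUSG00000028042.15, chromosome 3, 89377644 to 89394776, minus strand) was open at its distal promoter and at 2 sites inside the gene. The peak at the distal starts (89393563 to 89394371) was 809 bp wide with a signal of 11.9 and a −log10 p of 263.1, at percentiles 42.1 and 75.4. Its summit lay at −0.368 kb from the start of transcript Zbtb7b-201 and 52 bp from that of Zbtb7b-206, and the antisense gene Gm15417 has a start within 1 kb. By −log10 p it was the strongest of the start peaks of the members, followed by Cd8b1 (54.3) and Cd4 (44.9). In intron 1, between the distal and the proximal starts, a peak at +4.37 kb (89388861 to 89389461) had a signal of 6.70 and a −log10 p of 102.6, percentiles 12.3 and 45.9. It lay 1320 bp from the proximal start of Zbtb7b-204. Another, at +11.1 kb in the same intron (89382046 to 89382427), had 6.97 and 49.3.

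The proximal starts themselves had no thresholded peak. The pseudoreplicated list had a weak one 63 bp from the start of Zbtb7b-203 (89387156 to 89387335, signal 2.39, −log10 p 9.15). It added a peak in exon 3 of the principal transcript at +14.8 kb (89378328 to 89378705, signal 5.19, −log10 p 19.2), which is on the 3′ side of the gene. It also added a weak peak at −1.22 kb (89394506 to 89394677, signal 2.34). That peak lay inside the annotated gene, 193 bp from the start of transcript Zbtb7b-207. The Zbtb7b silencer, to which Runx complexes bind in CD8 lineage cells, is known to lie upstream of the distal promoter. From the distal promoter peak to the Flad1 start, 17.2 kb (89394372 to 89411587), no thresholded peak was called, and that weak peak was the only one the pseudoreplicated list had there.

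Windows of Zbtb7b are shown for the distal promoter and the stronger −log10 p peak of the intron. Before the start of Zbtb7b-206 (chr3:89393679-89393978, minus strand) capitals mark ETS (GGAAGT) and KLF/SP.
Zbtb7b distal promoter: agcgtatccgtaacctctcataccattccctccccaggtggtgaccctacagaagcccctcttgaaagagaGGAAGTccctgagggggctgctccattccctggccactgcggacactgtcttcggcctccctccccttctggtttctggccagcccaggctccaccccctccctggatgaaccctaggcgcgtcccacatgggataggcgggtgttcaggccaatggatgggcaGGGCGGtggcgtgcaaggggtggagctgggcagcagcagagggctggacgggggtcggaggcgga
Around the intron 1 summit (chr3:89388841-89389140, minus strand) capitals mark TCF/LEF and the E-box letters CAGCTG.
Zbtb7b intron 1, +4.37 kb: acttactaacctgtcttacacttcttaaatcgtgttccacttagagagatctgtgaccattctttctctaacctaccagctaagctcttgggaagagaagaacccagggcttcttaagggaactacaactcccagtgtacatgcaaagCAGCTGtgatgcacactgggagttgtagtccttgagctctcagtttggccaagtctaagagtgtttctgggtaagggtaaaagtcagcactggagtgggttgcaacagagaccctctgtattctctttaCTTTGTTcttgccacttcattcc
The distal promoter window had 12 CpG, a GC content of 64.7% and an observed to expected CpG ratio of 0.383. The intron window had 1 CpG and 45.3% GC. Neither held a RUNX match, and of the 11 thresholded peaks in the Zbtb7b window the 2 with a RUNX match lay at Adam15, a neighbour.

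The upstream neighbours of Zbtb7b had peaks of higher signal than Zbtb7b. The peak at the start of Flad1, which encodes FAD synthase, had the highest signal of all 27 peaks, 33.4 (percentile 99.9) with a −log10 p of 654.6. The shared start region of Cks1b and Shc1 had a signal of 24.7 and a −log10 p of 642.3, Pygo2 24.9 and 417.7, and Pbxip1 16.04 and 144.8. On the other side, peaks lay at starts of Dcst1 (5.15) and Adam15 (16.7 and 9.10). Another (8.58) lay 51 bp from a start of 4731419I09Rik, with a start of Efna4 also within 1 kb. The median signal was 11.9 over the 11 Zbtb7b peaks, 7.86 over the 15 Cd4 peaks and 13.2 over the whole list.

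**Figure D4:**
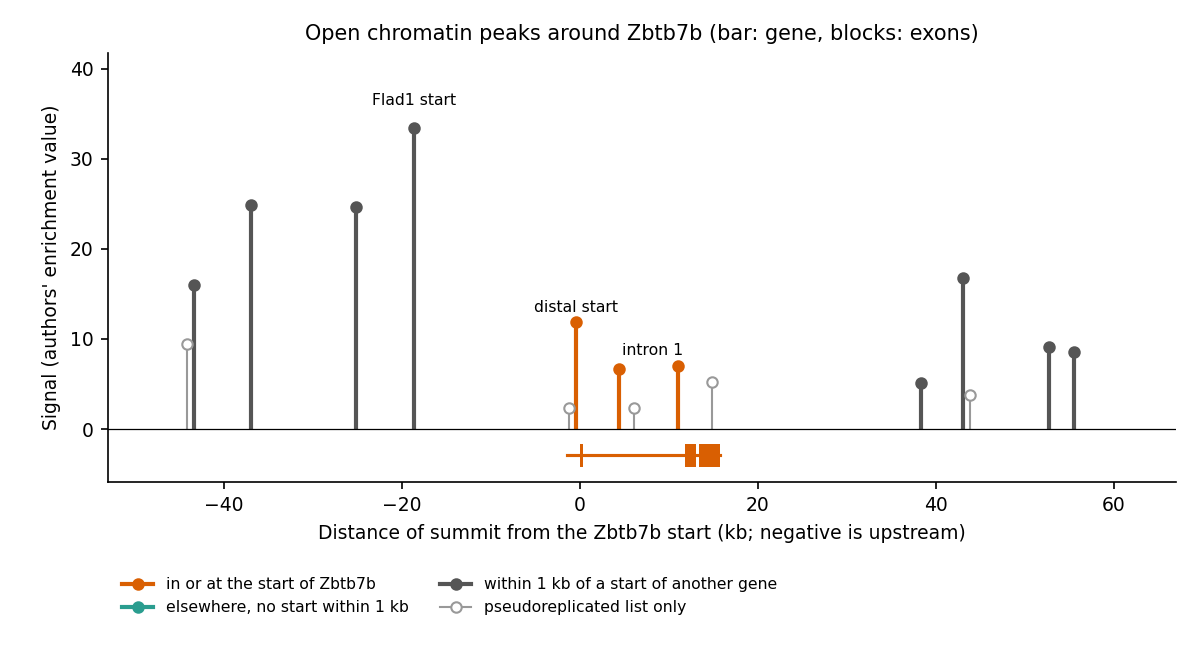
Signal of each peak (y axis, the authors' enrichment value) by the distance of its summit from the start of Zbtb7b-201 in kb (x axis, negative is upstream), with the gene drawn under the axis and open circles for peaks of the pseudoreplicated list only. The distal start (11.9) and 2 intron sites (6.70 and 6.97) mark the gene, and the upstream neighbours from Flad1 (33.4) on stand higher.

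The ranked list gives each peak a −log10 p in 2 IDR inputs, whose identity the sources used here do not state. At the main Cd4 intron 1 peak they were 273.0 and 236.4, at the Cd4 start 26.5 and 20.1, and at the weak intron 1 peak 15.3 and 21.1. At Cd8b1 they were 22.8 and 33.7. At the Zbtb7b distal start they were 125.7 and 142.1, and at its intron 1 peak 55.4 and 50.2. All peaks of the member windows had a value in both inputs, also those below the threshold. The IDR threshold itself selects on likeness between inputs, so values in both are no separate evidence for these peaks. The order from the main intron 1 peak to the Zbtb7b distal start to the Zbtb7b intron peak was the same in both, with pooled values far apart. The order of the Cd4 start, the weak intron 1 peak and Cd8b1 was not. Neither input adds a biological replicate.

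**Figure D5:**
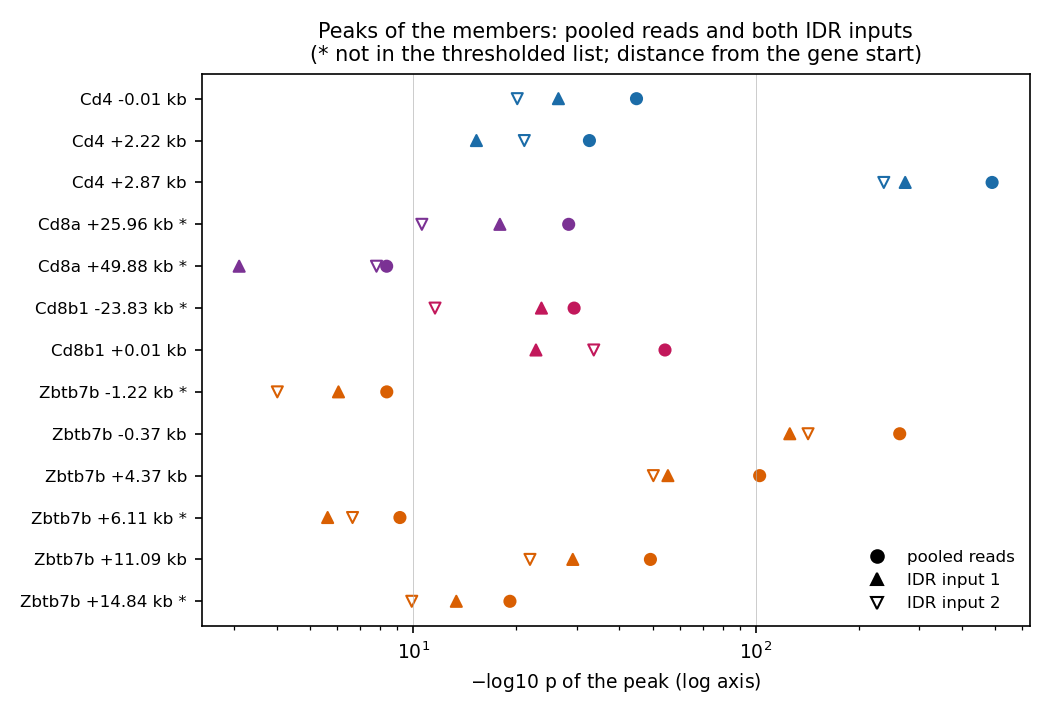
−log10 p (x axis, log scale) of peaks in or near Cd4, Cd8b1, Cd8a and Zbtb7b (rows, by distance of the summit from the gene start, at Cd4 and Zbtb7b the gene and its starts only; stars mark peaks outside the thresholded list), in pooled reads (circles) and in both IDR inputs (triangles). The Cd4 intron 1 peak (489.5) and the Zbtb7b distal start (263.1) lie far right, and the starred peaks lie at or under 29.5 in pooled reads.

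At the borders of the rules, the Cd8b1 peak lay 633 bp outside the Cd8a window. At Cd4 the nearest peak outside lay 457 bp beyond the window, at Tpi1 (signal 13.7), and the nearest inside was 6947 bp from the other edge, at Mlf2 (13.6). At Zbtb7b they were 12097 bp beyond (5.94) and 8082 bp inside (16.04, Pbxip1). On the IDR scale, the thresholded peaks nearest the limit of 1.301 were those of Ptms (1.366), the weak Cd4 intron 1 peak (1.370) and Dcst1 (1.389), and the nearest outside was the exon 3 peak of Zbtb7b (0.954).

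Over all 27 peaks the motif content was counted in the 300 bp around each summit and set beside the share of all thresholded peaks. RUNX was matched in 3 peaks (31.4% of all peaks), ETS in 8 (33.7%) and the E-box (CAGCTG or CACCTG), the site of E proteins, in 11 (35.0%). TCF/LEF was matched in 6 (11.1%), GATA (letters AGATAA or TGATAA) in 5 (19.7%), MYB (letters CAACTG or CAACGG) in 5 (17.8%), KLF/SP in 11 (30.3%) and AP-1 (TGACTCA or TGAGTCA) in 1 (9.28%). CTCF, the insulator protein, was matched by a core string of its consensus in 5 (10.5%), among them the Usp5, P3h3 and Dcst1 peaks. The peaks away from any start, 9 in number, gave 5 with TCF/LEF, against 14.2% of all such peaks, and 0 with KLF/SP, against 11.7%. RUNX was matched in 1 of them (36.1%), ETS in 1 (35.3%), GATA in 4 (25.8%) and MYB in 2 (18.4%). The E-box was matched in 3 (36.9%), AP-1 in 1 (12.4%) and CTCF in 2 (13.6%). In 200 bp windows TCF/LEF was matched in 3, against 9.74%. The 27 peaks come from the windows of the members only, so these counts are a description of few sites.

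Regulators of coreceptor choice were mostly open at their starts. Of a list of 28 genes, 22 had a thresholded peak within 1 kb of the 5′ end, against 48.6% of protein-coding genes, and 26 in the pseudoreplicated list, against 53.4%. The highest signals were those of Runx3 (26.7), the Runx factor of CD8 lineage cells, Tcf3 (22.4), which encodes the E proteins E12 and E47, and Mta2 (19.8), a subunit of the NuRD complex. Runx1 had 12.05, its partner Cbfb 17.7, Gata3 9.06, Tox 8.01, Satb1 7.70 and Patz1, which encodes the Cd8 regulator MAZR, 7.03. Without a thresholded peak at the 5′ end were Runx2, Zbtb7a, Lef1, Tcf7, Ets1 and Nfatc2, of which Runx2 and Zbtb7a had none in the pseudoreplicated list either. The 5′ end is the outermost annotated one, and other transcript starts of the regulators were not examined. The loci of these genes held from 10 (Nfatc2) to 24 (Ets1) thresholded peaks, so an absent peak at the 5′ end does not mean a promoter without one. Zbtb7a encodes LRF, a relative of ThPOK. The 28 loci held a median of 10.5 peaks, with 3 at the least (Hdac2 and Sox4) and 26 at the most (Tox), against 3 over all protein-coding genes. Each window includes the gene itself, so longer genes had longer windows, and these counts were not adjusted for length.

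Markers of the labelled cells were open at their starts: 6 of 6 T cell genes and 5 of 5 regulatory T cell genes had a thresholded peak there. Of 6 markers of CD8 T cells 3 had one, Cd8b1, Eomes and Prf1, of 4 B cell markers 0 and of 4 myeloid markers 1. The share over all protein-coding genes was 48.6%, so the count for CD8 T cell markers was near the background. In the pseudoreplicated list the counts were 4 of 6 for CD8 T cells, 1 of 4 for B cells and 1 of 4 for myeloid cells, against 53.4% of protein-coding genes. Peaks do not tell which cells of the pool they come from, and the part of other cells in the Cd8b1 peak was not tested.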

How the data were processed

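ATAC-seq peaks of 1 pool of regulatory T cells were analysed. Per the file listings deposited with the libraries, peaks were called by the authors on mm10 from one alignment that both libraries share. Aligner, peak caller and any shift of read ends are details not given in the sources used here. Each deposited list gives the authors' signal per peak, an enrichment whose reference is not stated, and their −log10 p. The deposited ranked list adds as scores the −log10 IDR and the −log10 p of each peak in 2 IDR inputs, which may be the libraries or splits of their reads (not given in the sources used here). These values were used only to describe and rank peaks.

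Lines that share an interval were counted once, at the summit with the highest signal. Coordinates are 1-based. GRCm38.p6 (RefSeq) with GENCODE M21 is the same assembly as mm10, and no peak ran past a chromosome end. Of the 4 members, 2 had RefSeq promoter entries, and these equalled the genome at their coordinates. A peak at a gene start overlapped 1 kb on either side of the 5′ end. A peak was assigned to a gene start of any transcript within 1 kb of its summit. Percentiles are shares of thresholded peaks with a lower value. Motifs of 9 families were searched on both strands. The members, lists and windows were chosen with earlier results of these data known. Named were the 4 members, their peaks at starts, in known elements or of highest signal, neighbours with a start at a peak, and of the regulators the 3 highest and those without a peak. The regulators in the sentence after them were named after their values were seen. No test was run, because there is 1 group of 1 biological replicate. Counting and motif functions were tested on simulated data. Alternatives used other lists, thresholds, windows and ways to count. Python 3.11.15, pandas 2.3.3 and numpy 2.4.6 were used. Sequence and counts of 1 window upstream of Cd4 are not reported here.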

Additional observations from a re-analysis of the deposited data

How the results depend on the processing

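Of 100 alternative values, 60 stayed within 1.5 times the main count and 40 did not. No paired analysis was possible because there is 1 group and the peaks were called on pooled reads, and no library could be left out. The stretch between Cd8b1 and Cd8a and the 10 kb downstream of Cd8a held 0 peaks under every alternative run. Floors on signal or −log10 p can only remove peaks, so they could not change a 0, and such values are among the 60. With a floor at the median signal (13.2), Cd4 kept 4 peaks, Cd8b1 0 and Zbtb7b 5, members with a peak at the start fell to 0, intron 1 of Cd4 had 1, Zbtb7b had 0 in the gene and 1 downstream, and regulators had 9 with a start peak and a median of 3.5 peaks. With a floor at the median −log10 p (115.1), the values were 5 at Cd4, 0 at Cd8b1, 6 at Zbtb7b, 1 member with a start peak (Zbtb7b), 1 in intron 1 of Cd4, 1 in Zbtb7b, 1 downstream of it and a median of 4.5 for regulators. With the pseudoreplicated or the ranked list, Cd8a had 2, Cd8b1 2, the distal window of Cd4 1, the gene Zbtb7b 6 and the regulators a median of 19.5. Counts over all protein-coding genes are not given under either floor, nor are their peaks per locus in these lists. Whether members or regulators moved more than other genes is therefore not shown. With every summit counted, Cd4 had 29, Cd8b1 4, Zbtb7b 21, intron 1 of Cd4 4, and Zbtb7b 9 upstream, 5 inside and 7 downstream. With 100 kb on either side, Cd4 had 23, Cd8a 2 and Cd8b1 2, and with 20 kb Zbtb7b had 4. In 200 bp windows, RUNX was matched in 1 peak, against 24.9% of all thresholded peaks, and ETS in 4, against 28.9%. These settings change which peaks are kept, how summits are counted or how wide the windows are, and no cause of a shift was tested. The unknown depth limits what an absent peak means.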

Other observations

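The intron 1 peak of Zbtb7b at +4.37 kb held an inverted repeat around its summit, noticed after the sequence was read. One arm was ACTACAACTCCCAGTGT (chromosome 3, 89389003 to 89389019) and the other ACACTGGGAGTTGTAGT (89388964 to 89388980), its reverse complement, so both arms of 17 bases match without a mismatch across a spacer of 22 bases. A core string of the consensus of ZNF143, a zinc finger factor of promoters, lies in each arm and matched 2 times in that window. In the 300 bp around all 34610 thresholded summits, 617 peaks (1.78%) held at least 1 such match and 77 (0.222%) at least 2. A match does not show binding.

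Signal and −log10 p ranked the same peaks differently at these loci. The Zbtb7b distal start stood at percentile 42.1 by signal and 75.4 by −log10 p, and the Cd4 peak at −15.5 kb at 22.1 and 55.5, whereas the P3h3 peak at +40.8 kb stood at 84.6 and 45.6 and the Cd8b1 peak at 35.4 and 22.1. Of the 27 peaks, 9 reached the median signal of the whole list and 11 its median −log10 p. Over the whole list, peaks within 1 kb of a start had a median −log10 p of 232.3 and a median signal of 15.4, and the others 83.9 and 12.1.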
